A study of Homo sapiens with 4 samples.

Results

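The genes described are those of iron storage, uptake and ferritinophagy, the turnover of ferritin in the lysosome. A list of 10 genes was set by name, and a gene was measured where a row of the expression table carried its symbol alone. This held for 8 of the 10, each with 1 row, among 22465 genes in all. They were FTL (ferritin light chain), NCOA4, TFRC (transferrin receptor 1), TFR2 (transferrin receptor 2), STEAP3, SLC11A2 (DMT1), SLC40A1 (ferroportin) and ACO1 (IRP1). FTH1 and IREB2 were not analysed here.

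The cells were MHCC-LM3, an established human hepatocellular carcinoma line grown in serum-containing medium. They received zerumbone, a sesquiterpene of ginger plants, at 50 µM, or the solvent DMSO, both for 24 h. Each group had 2 arrays of total RNA, 4 in all, and so few arrays limit the precision. The labels do not state whether both samples of a group were grown separately, so each p-value reflects the spread of these 4 samples alone, and that spread may be technical. All groups are of 1 cell line, and fewer cells of a kind and less RNA per cell cannot be told apart in such bulk samples.

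Cells take up iron mainly as transferrin bound to its receptor, reduce it in the endosome and pass it through a divalent metal transporter into the cytosol. There it is used, stored in the ferritin shell or exported by ferroportin. NCOA4 carries ferritin to the lysosome when iron is needed. When iron is scarce, the iron regulatory proteins bind a hairpin in target transcripts, the iron responsive element. Bound at the 3′ end of the TFRC transcript it protects that transcript, and bound at the 5′ end of ferritin and ferroportin transcripts it blocks their translation. An array reads transcripts and not translation or protein.

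The letters of such a hairpin are shown for FTL because its transcript level and its translation are controlled separately. The stretch holds bases 21 to 50 of the annotated FTL transcript start, at chr19:48965329-48965358 on the plus strand of GRCh38.p14, from RefSeq, with the loop letters CAGTG in capitals at bases 39 to 43.
FTL: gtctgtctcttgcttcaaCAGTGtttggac
The letters CAGTG lay within the first 50 transcribed bases of 6.48% of 35116 annotated starts, and also at bases 27 to 31 of 1 of the 2 NCOA4 starts. The SLC40A1 start held no match there, and a search of 50 bases cannot find an element further along the transcript. The matches are of letters and are not tested sites.

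The 250 bases upstream of TFRC and SLC40A1 are shown because these genes had the largest differences among the 8. Both lie on the minus strand of GRCh38.p14 and come from RefSeq, TFRC at chr3:196082091-196082340 and SLC40A1 at chr2:189580787-189581036. Capitals mark the TATA box core TATAA and, in TFRC alone of this pair, the hypoxia response element core ACGTG.
TFRC: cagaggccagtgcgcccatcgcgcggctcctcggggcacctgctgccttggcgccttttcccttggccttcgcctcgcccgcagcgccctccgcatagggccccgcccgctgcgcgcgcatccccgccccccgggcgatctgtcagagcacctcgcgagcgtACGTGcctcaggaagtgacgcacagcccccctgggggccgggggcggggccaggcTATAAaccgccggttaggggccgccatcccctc
SLC40A1: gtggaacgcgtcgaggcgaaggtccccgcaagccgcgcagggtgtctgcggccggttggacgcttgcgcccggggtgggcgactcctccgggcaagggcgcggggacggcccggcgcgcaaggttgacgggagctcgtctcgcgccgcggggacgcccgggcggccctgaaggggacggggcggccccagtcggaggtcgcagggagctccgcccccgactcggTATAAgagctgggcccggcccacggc
Both strands were searched for these cores, for the antioxidant response element core TGACNNNGC and for the E-box CACGTG, which contains the hypoxia core. TATAA began 33 bases before the TFRC start and 26 bases before the SLC40A1 start, and 18.9% of all promoters of this length hold it. ACGTG began 88 bases before the TFRC start, and 18.5% of promoters hold it. TGACNNNGC and CACGTG had no match upstream of TFRC or SLC40A1, against 10.9% and 6.34% of all promoters with one.

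Among the 8 measured genes, 3 fell and 2 rose under zerumbone, and 3 did not pass the test. The falls were large in SLC40A1, the iron exporter, and TFRC, the main iron uptake receptor. The rises were smaller, in NCOA4, the ferritinophagy receptor, and in ACO1, an iron regulatory protein, while the small fall was in SLC11A2. The test was limma on the deposited log2 values with Benjamini-Hochberg adjustment over all 22465 genes and a threshold of 0.05. By that rule 36.0% of all genes were called, 18.4% higher and 17.7% lower. With genes near the array's background left out, 72.3% of 10833 genes were called. That filter drops TFR2 and leaves the same 5 calls, so a share of 5 in 8 is not a result about iron genes. The arrays of the groups did not overlap for 7 of the 8, all but TFR2, against 69.9% of all genes. That share includes the dim genes and was not taken without them. The 2 sets are therefore unlike, and this is no result about iron genes either. The median difference was -0.04 over the 8 and 0.07 over all genes, on the log2 scale.

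**Figure D1:**
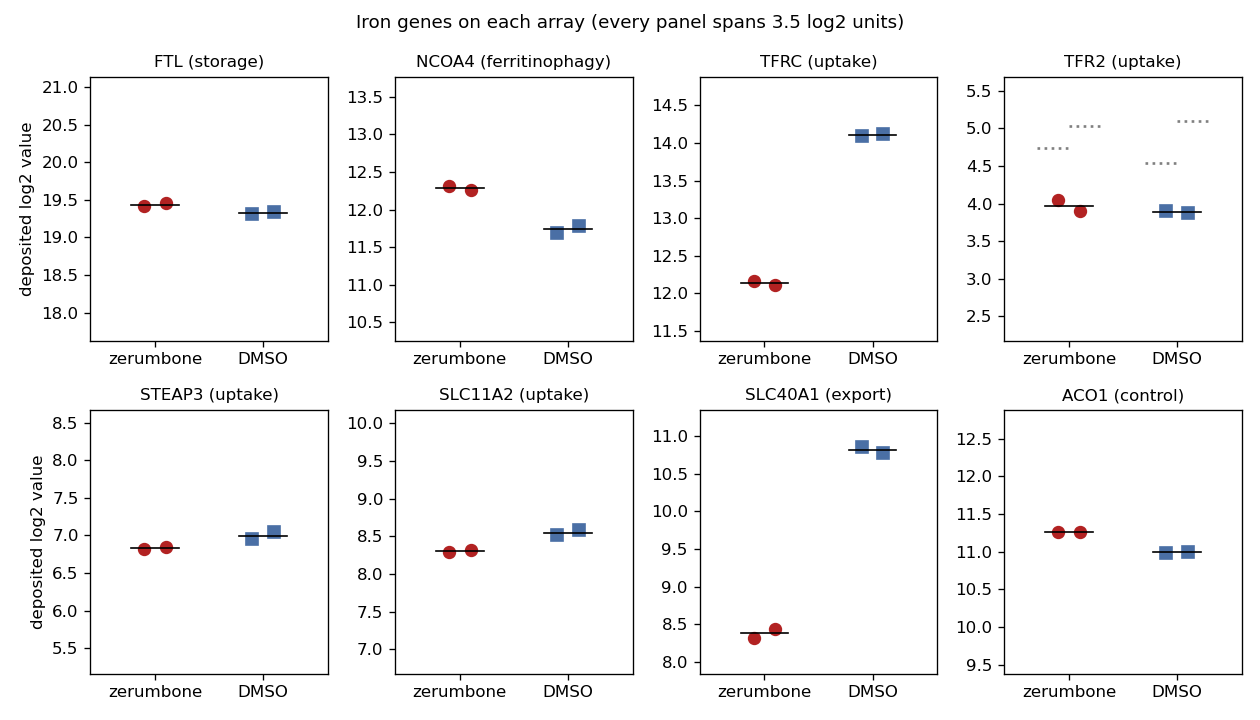
Deposited log2 value of each of the 8 measured iron genes on each array, with red circles for zerumbone, blue squares for DMSO and a black line at each group's mean (n = 2). Dotted lines in the TFR2 panel mark each array's background percentile. TFRC and SLC40A1 lie well below DMSO under zerumbone, NCOA4 and ACO1 above it, and TFR2 is under the background on all 4 arrays.

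In storage, FTL, the ferritin subunit that promotes formation of the iron core, read 19.4113 and 19.4534 log2 units under zerumbone, against 19.3170 and 19.3355 under DMSO. Both zerumbone arrays were higher than both DMSO arrays. The difference was 0.11 on the log2 scale (SE 0.061, 95% interval -0.05 to 0.26), with a limma adjusted p of 0.249, so FTL, at 1.08-fold, did not pass. The highest FTL value was on zerumbone replicate 2, and the highest value of any row on that array was 19.6983. On zerumbone replicate 1 the highest value was 19.7513. On both DMSO arrays it was 19.9315, the highest of the whole table and 0.478 above the highest FTL value. Whether differences are compressed at this end of the scale was not tested. FTL also has 20 annotated pseudogenes in RefSeq, and probes of a near-identical copy may be shared.

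In ferritinophagy, NCOA4 read 12.3096 and 12.2555 under zerumbone, against 11.6865 and 11.7826 under DMSO. Both zerumbone arrays lay above both DMSO arrays. NCOA4 rose by 0.55 on the log2 scale (SE 0.069, 95% interval 0.37 to 0.73), a 1.46-fold change with a limma adjusted p of 0.00305. The call held with any 1 array left out, at adjusted p from 0.0140 to 0.0338. NCOA4 has 4 annotated pseudogenes, so some signal may come from copies. Whether NCOA4 changed more than FTL, a subunit of its cargo ferritin, was not tested.

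In uptake, TFRC, which binds iron-loaded transferrin at the cell surface, read 12.1691 and 12.1088 under zerumbone, against 14.0949 and 14.1197 under DMSO. The groups were far apart next to their spread, with means of 12.14 ± 0.043 under zerumbone and 14.11 ± 0.018 under DMSO (SD, n = 2 each). TFRC fell by 1.97 on the log2 scale (SE 0.063, 95% interval -2.13 to -1.81), a 3.91-fold fall with a limma adjusted p of 6.43e-05. In order of fall, TFRC was number 392 of the 22465 genes.

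TFR2, the second transferrin receptor, serves in hepatocytes as a sensor of transferrin iron. It read 4.0460 and 3.8974 under zerumbone, against 3.9032 and 3.8750 under DMSO. All 4 values lie under the 95th percentile of the 23 antigenomic background rows of their array, which ranged from 4.54 to 5.10, so TFR2 was at background level in both groups. Its difference of 0.08 did not pass, with a limma adjusted p of 0.457, and is no measure of a change.

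STEAP3, the endosomal reductase that turns ferric into ferrous iron, read 6.8166 and 6.8469 under zerumbone, against 6.9560 and 7.0395 under DMSO. The zerumbone arrays were both lower, but the difference of -0.17 (SE 0.066, 95% interval -0.34 to 0.0043) did not pass, with a limma adjusted p of 0.119. SLC11A2, which moves the reduced iron out of the endosome, read 8.2861 and 8.3242 under zerumbone, against 8.5156 and 8.5788 under DMSO. The groups did not overlap, and SLC11A2 fell by 0.24 on the log2 scale (SE 0.064, 95% interval -0.41 to -0.08), a 1.18-fold fall with a limma adjusted p of 0.0390. Leaving out any 1 of the 4 arrays ended that call, at adjusted p from 0.0744 to 0.212. SLC11A2 has 4 annotated starts in RefSeq, and the row does not separate its isoforms.

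In export, SLC40A1, the only known cellular exporter of iron, read 8.3211 and 8.4379 under zerumbone, against 10.8499 and 10.7725 under DMSO. The zerumbone values were both low, and the means were 8.38 ± 0.083 under zerumbone and 10.81 ± 0.055 under DMSO (SD, n = 2 each). SLC40A1 fell by 2.43 on the log2 scale (SE 0.074, 95% interval -2.62 to -2.24), a 5.40-fold fall with a limma adjusted p of 6.03e-05. In order of fall, SLC40A1 was number 213 of the 22465 genes. The range over 11 alternative treatments of the data was -2.06 to -1.94 for TFRC and -2.52 to -2.37 for SLC40A1.

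In control, ACO1, an aconitase that binds iron responsive elements once it loses its iron-sulphur cluster, read 11.2671 and 11.2669 under zerumbone, against 10.9881 and 10.9987 under DMSO. Replicates were close and the groups did not overlap. ACO1 rose by 0.27 on the log2 scale (SE 0.059, 95% interval 0.12 to 0.43), a 1.21-fold change with a limma adjusted p of 0.0208. Leaving out any 1 array ended the call, at adjusted p from 0.0557 to 0.129, and so did centring each array on its median, at 0.0976.

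**Figure D2:**
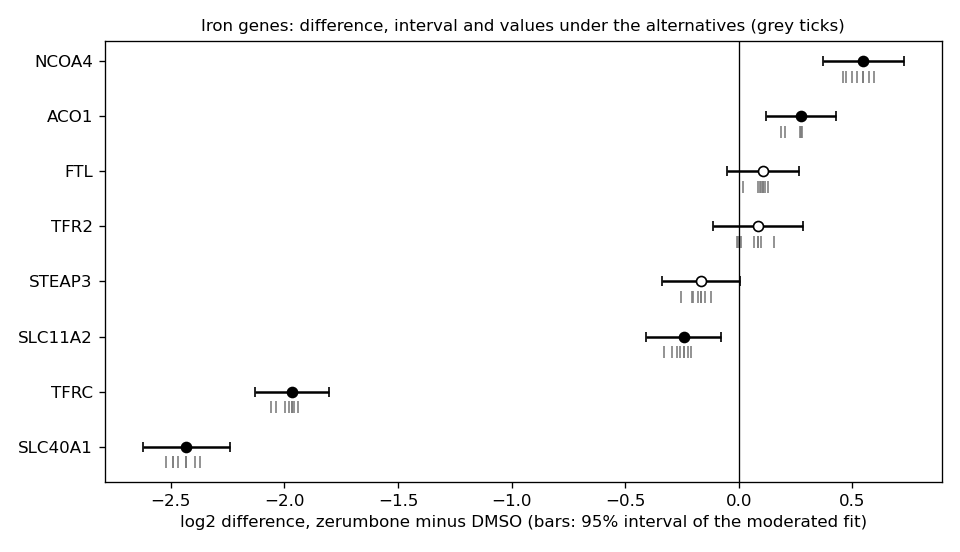
Log2 difference, zerumbone minus DMSO, of the 8 measured iron genes with the 95% interval of the moderated fit, filled where the gene passed the limma threshold. Grey ticks give the difference under each alternative, and the ticks of SLC40A1 and TFRC stay far below 0 while those of FTL and TFR2 lie close to it. TFR2 was at background level in both groups.

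**Figure D3:**
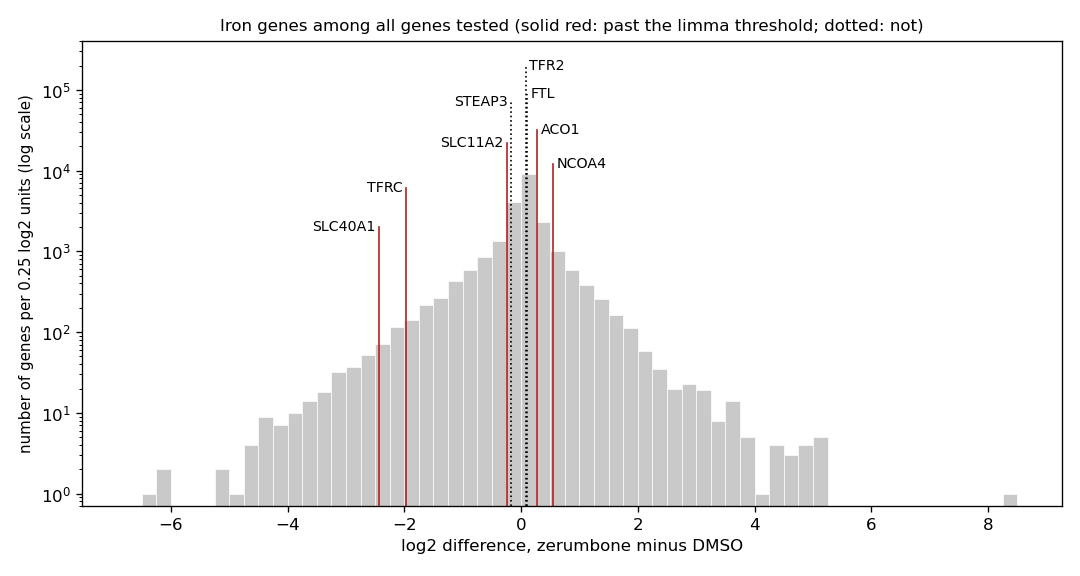
Histogram of the log2 difference, zerumbone minus DMSO, over all 22465 genes on a logarithmic count axis, with the 8 iron genes as vertical lines whose heights only place the names. SLC40A1 and TFRC lie in the lower tail, and the other genes lie between -0.24 and 0.55.

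Further genes of iron metabolism were taken from 8 lists with 120 different names, of which 106 were measured. Of these, 34 rose, 23 fell and 49 did not pass. Over all 22465 genes, 18.4% rose and 17.7% fell, or 35.5% and 36.8% without dim genes. Each list count below is to be read beside these shares and is by itself no result about its list. Without dim genes 71.4% of 84 other iron genes were called, against 72.3% of all genes kept. The number lower was 15 without DMSO replicate 1 and 13 without DMSO replicate 2.

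Of 12 measured genes that deliver ferritin to the lysosome, 10 rose and 0 fell, and ATG7 and CTSD did not pass. Among all genes kept without dim ones, 72.3% were called in either direction, 35.5% higher and 36.8% lower, so the number called is near the share of all genes, and the direction was not tested over the list. The median difference was 0.68, against 0.07 over all 22465 genes, of which only 10833 were kept without dim ones. None of the 12 was at background level in both groups, so the 2 medians are of unlike sets. The list was also chosen with earlier results of these data known. RB1CC1, the FIP200 scaffold of the autophagy initiation complex, averaged 14.14 ± 0.084 under zerumbone and 11.41 ± 0.0049 under DMSO (SD, n = 2 each), a 6.63-fold rise. TAX1BP1, an autophagy receptor known to act with NCOA4 in ferritin turnover, rose by 1.23. PIK3C3, the lipid kinase of autophagosome formation, rose by 1.20, and ATG5, of the conjugation machinery, rose by 0.85. The limma adjusted p of these 4 ranged from 4.58e-05 to 9.45e-04. The members are general autophagy and lysosome genes and are not specific to ferritin.

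In the wider uptake list, 3 of 11 measured genes rose, 2 fell and 6 did not pass, and 5 were at background level in both groups. STEAP2 and STEAP1, paralogs of STEAP3, fell by 2.48 and 1.55. STEAP2 averaged 6.67 ± 0.247 under zerumbone and 9.16 ± 0.020 under DMSO (SD, n = 2 each), with a limma adjusted p of 1.72e-04. MCOLN1, a lysosomal channel that releases iron and other cations, rose by 2.33, and SNX3, a sorting nexin that returns the transferrin receptor to the cell surface, rose by 1.42. The median of this list was 0.05.

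In the list of export and the hepcidin axis, 2 of 11 genes rose, 4 fell and 5 did not pass. At background level in both groups were 4 of the 11. HFE, among the falls, was under the background percentile on both zerumbone arrays and on 1 DMSO array. BMP6, the ligand that signals iron status in the liver, rose by 2.54, a 5.81-fold change with a limma adjusted p of 1.17e-04. CP, ceruloplasmin, the ferroxidase that works with ferroportin, fell by 1.08. BMPR2, a receptor of BMP ligands, fell by 0.68, and NEO1, which binds the BMP co-receptor hemojuvelin, fell by 0.62. HAMP, the gene of hepcidin, read 5.0049 and 4.4510 under zerumbone, against 4.6794 and 4.8317 under DMSO. In each group HAMP was under the background percentile on 1 array, and the groups overlapped. With either DMSO array left out, 1 gene rose.

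Among genes that handle cytosolic iron or control the iron regulatory proteins, 4 of 16 measured rose, 3 fell and 9 did not pass. The median was 0.07, and 1 gene was at background level in both groups. FBXL5, the iron-sensing subunit of the ligase that degrades iron regulatory proteins, rose by 0.36 with a limma adjusted p of 0.0114. Its call was lost without DMSO replicate 1, at 0.0924, without DMSO replicate 2, at 0.0594, and with all transcript clusters tested, at 0.0547. CUL1 and SKP1, general subunits of that ligase class, rose by 0.71 and 0.59, and GLRX3, a glutaredoxin that carries iron-sulphur clusters, rose by 0.98. The falls were small, at most 0.30 in size, and numbered 1 without zerumbone replicate 1 and 0 without zerumbone replicate 2, DMSO replicate 1 or DMSO replicate 2, and 0 with all transcript clusters tested. The iron chaperones PCBP1 and PCBP2, which load ferritin, differed by 0.11 and 0.07 without passing.

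For mitochondrial iron and iron-sulphur clusters, 4 of 19 genes rose, 6 fell and 9 did not pass, with a median of 0.03. HSPA9, a mitochondrial chaperone, rose by 1.40, ISCU, the scaffold for cluster assembly, by 0.94 and ISCA1, a later assembly factor, by 0.82. ABCB10, an inner membrane transporter, fell by 0.93. The falls numbered 3 without DMSO replicate 1 and 1 without DMSO replicate 2.

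For haem, 4 of 19 genes rose, 6 fell and 9 did not pass, with a median of 0.04. HMOX1, which opens the haem ring and frees its iron, read 12.9521 and 12.9457 under zerumbone, against 9.4132 and 9.0022 under DMSO. The groups lay far apart, at a 13.4-fold rise with a limma adjusted p of 8.41e-05. BLVRB, a biliverdin reductase, rose by 1.71. LRP1, the receptor that takes up haem bound to hemopexin, fell by 1.74, and CPOX, an enzyme late in haem synthesis, fell by 1.68.

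In the ferroptosis list, the set around iron-dependent death by lipid peroxidation, 6 of 14 genes rose, 2 fell and 6 did not pass, with a median of 0.24. Of the rises 1, GCH1, was at background level in both groups. CHAC1, which degrades glutathione, rose by 3.70, SAT1, an enzyme of polyamine breakdown, by 3.15 and SLC3A2, the heavy chain of the cystine transporter, by 1.99. SLC7A11, the other chain of that transporter, averaged 15.82 under zerumbone and 15.87 under DMSO and did not pass (limma adjusted p 0.598). LPCAT3, which places polyunsaturated fatty acids in phospholipids, fell by 1.65. GPX4, the peroxidase that repairs lipid peroxides, averaged 13.96 ± 0.043 under zerumbone and 14.11 ± 0.111 under DMSO (SD, n = 2 each) and did not pass (limma adjusted p 0.222). In this list 1 gene fell with either DMSO array left out or with all transcript clusters tested.

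Of 6 other measured genes listed for an iron responsive element, 1 rose, 1 fell and 4 did not pass. Whether each transcript carries such an element was not tested, and for CDC42 it is not taken as known. EPAS1, the hypoxia factor HIF-2 alpha, rose by 0.70. CDC42BPA, a kinase with such an element near its 3′ end, fell by 1.43. CDC42 and PFN2 differed by -0.01 and -0.06 without passing. ALAS2 was at background level in both groups and CDC14A was under the percentile on 1 array of each, and neither passed.

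**Figure D4:**
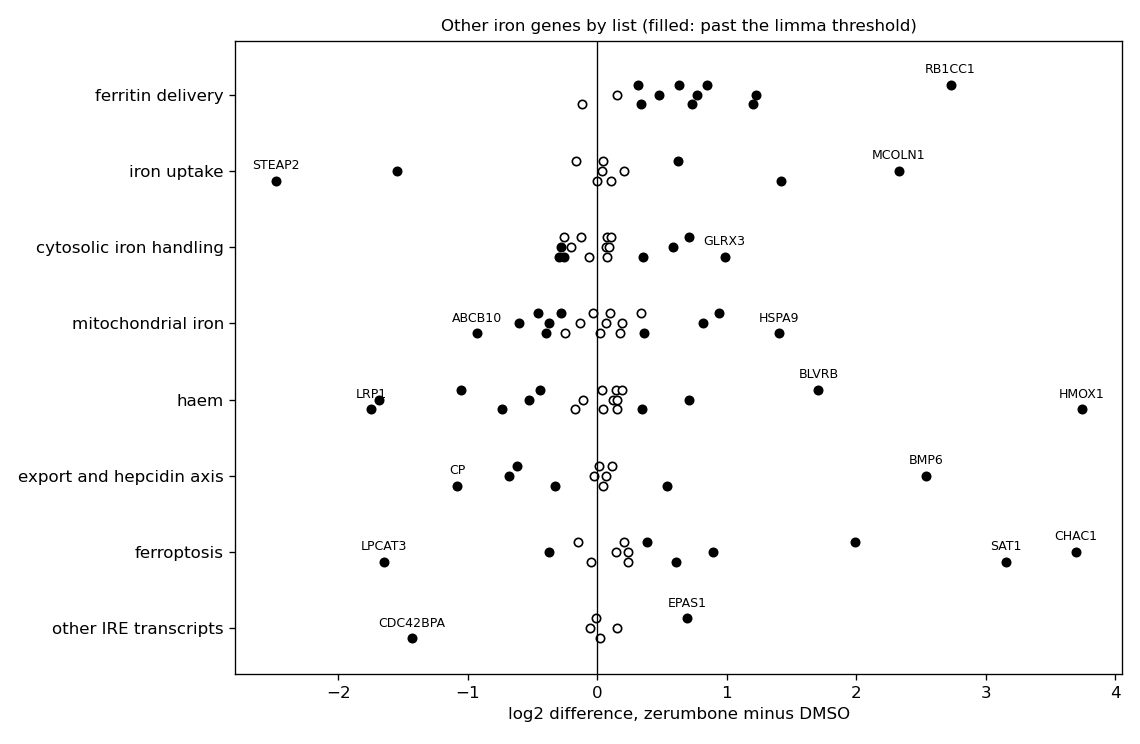
Log2 difference, zerumbone minus DMSO, of each measured gene in 8 lists of iron metabolism, filled where it passed the limma threshold. The ferritin delivery list has 10 filled points, all above 0, and the other lists have filled points on both sides.

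The labels place the line in liver cancer, yet 8 of 9 measured hepatocyte markers were at background level in both groups. ALB, the serum albumin gene, averaged 4.84 under zerumbone and 4.56 under DMSO, with a limma adjusted p of 0.105, and was above the percentile on 1 zerumbone array. Of leukocyte and macrophage markers, 10 of 11 were at background level in both groups. The other, CD68, a lysosomal protein gene, rose by 0.93. At background in both groups were also 4 of 5 erythroid, 6 of 7 endothelial and 6 of 7 fibroblast markers. The sum of the leukocyte markers' unlogged values was 23599 to 23854 under zerumbone and 12290 to 12767 under DMSO, nearly all of it CD68, and that of the hepatocyte markers was 150 to 162 under zerumbone and 136 to 146 under DMSO. The erythroid sum was 70.2 to 76.5 under zerumbone and 74.3 to 76.6 under DMSO. The endothelial sum was 139.9 to 148 under zerumbone and 309.9 to 329.9 under DMSO, a gap set by KDR, which fell by 1.93. The fibroblast sum was 93.5 to 99.2 under zerumbone and 99.6 to 102 under DMSO. The background rows themselves were higher under zerumbone in 22 of 23 cases, with a median difference of 0.08 (log2). Whether this offset reaches bright rows such as FTL was not tested.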

How the data were processed

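Total RNA of 4 samples was measured on Affymetrix whole-transcript arrays. The design text calls them exon arrays, but the row names match the annotation of a transcriptome array, which was used. The authors deposited log2 values, which the Affymetrix Expression Console produced by RMA per the submitters' processing notes. Versions and the genome build are not given in the sources used here. The values reach 19.9315, above what the raw scale of a scanner holds, so a later rescaling may have taken place, and the sizes of change given here refer to the values as deposited. RMA corrects background, forces the arrays onto 1 distribution and combines the probes of each cluster, and it can shrink differences at both ends of the scale. Groups were taken from the source labels, which give no replicate number, pairing or batch, so arrays were numbered in order of deposit.

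Of 70523 rows, 67528 transcript clusters were kept, and 23781 carried 1 symbol in the platform annotation, 1543 several and 42204 none. The brightest row per gene gave 22465 genes. Differences were tested with limma 3.58.1 under R 4.3.3 (lmFit, eBayes, two-sided, Benjamini-Hochberg over all genes, threshold 0.05), with 2 residual and 2.88 prior degrees of freedom. "Rose" and "fell" mean past that threshold. An exact permutation test of 2 against 2 arrays cannot go below 0.333 and was not used. Background level in a group means under the 95th percentile of the antigenomic rows on both arrays. The steps were tested on simulated data.

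The members and lists were chosen with earlier results of these data known. All members are named, as are up to 4 called genes with the largest non-overlapping difference of each list, and HMOX1, FBXL5, HAMP, GPX4, ALB and TF, the last not analysed here. Other named genes were chosen after their values were seen. Motifs were searched in RefSeq promoters of GRCh38.p14. Alternatives were 2 scalings, the filter on dim genes, 2 variance priors, the rows used, and each array left out. Plots used matplotlib 3.10.9.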

Additional observations from a re-analysis of the deposited data

How the results depend on the processing

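TFRC, SLC40A1 and NCOA4 kept their direction and their call under all 11 alternatives, and FTL and STEAP3 stayed without a call, at adjusted p from 0.148 to 0.899 for FTL and from 0.0545 to 0.429 for STEAP3. ACO1 lost its call after median centring (0.18, adjusted p 0.0976), after cyclic loess (0.20, 0.0679) and with all transcript clusters tested (0.27, 0.0940), where the adjustment runs over more rows. With 1 array left out its difference was 0.27 to 0.28. SLC11A2 lost its call with all clusters tested (-0.24, 0.138), and with 1 array left out it was -0.27 to -0.21. The members higher therefore numbered 1 under median centring, cyclic loess, all clusters tested and each array left out, against 2. TFR2, at background level, turned to -0.0062 after median centring and -0.0027 after cyclic loess, and HAMP, at -0.03, ranged from -0.30 to 0.25 with 1 array left out. With 1 array left out, the genes higher numbered 2557 to 3822 and the other iron genes lower 13 to 21, and the lone array of a group is then assumed to vary like the others. Of called genes 51.0% were higher, against 41.0% after median centring and 44.4% after cyclic loess. Median centring moved the median of all genes by 0.0888. The cause of these changes was not tested. No paired analysis was possible because the labels give no replicate numbers. Signal near background limits TFR2, HAMP and most hepatocyte markers.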

Other observations

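Rows of 2 processed copies of the ferritin heavy chain gene, FTH1P3 and FTH1P4, were looked at after their values were seen. Their probes may bind transcripts of other copies, so they are no measure of FTH1. A first FTH1P3 row read 11.0650 and 11.2413 log2 units under zerumbone, against 10.7581 and 10.7718 under DMSO, a difference of 0.39 with a limma adjusted p of 0.0199 over all 23781 rows with 1 symbol. A second FTH1P3 row averaged 15.68 under zerumbone and 15.43 under DMSO, with an adjusted p of 0.113, and FTH1P4 averaged 13.67 under zerumbone and 13.41 under DMSO, with an adjusted p of 0.161. All 3 rows were higher on both zerumbone arrays than on both DMSO arrays, and 1 passed. Over all 22465 genes, the groups did not overlap for 69.9% and 36.0% were called, so these counts are no result about ferritin copies.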
